A study of Schizosaccharomyces pombe with 28 samples.

Results

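Fission yeast (*Schizosaccharomyces pombe*) carries its tRNA genes both within its centromeres and along its chromosome arms, and the positions, order and sequence of 170 such genes are described here. The members are the features of type tRNA, taken once per locus tag, in the deposited genome annotation of the reporter strain. A gene is called centromeric where its middle lies in 1 of 3 windows, from 3740000 to 3800000 on chromosome I, from 1585000 to 1663000 on chromosome II and from 1066000 to 1144000 on chromosome III, and all other genes are called arm genes. By this rule 54 of the 170 tRNA genes were centromeric and 116 were on the arms, out of 6950 genes with a locus tag in the annotation. The study used ChIP-seq of H3K9me2 and H3K9me3 to ask how variants of the heterochromatin protein Swi6 act on the spread and inheritance of silent chromatin from a reporter gene, to which a TetR-Clr4 fusion protein is tethered until tetracycline is added. Its 28 libraries come from cells labelled swi6T278Y, swi6T278K, swi6T278Yepe1D, swi6T278Kepe1D, epe1D, clr4D and WT, grown at 32 °C without tetracycline or for 24 h with it, and 1 library is assigned to no genotype because its label names both variants. Read coverage of these libraries was not analysed here, so every value below is a position, a count or a sequence in 1 annotation, without replicates, sampling error or a test.

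RNA polymerase III transcribes tRNA genes from promoter elements that lie within the gene itself, the A box and the B box, which the factor TFIIIC binds. Fission yeast tRNA genes also use a TATA element upstream, and transcription stops at a run of T just after the gene. The centromeres of this yeast consist of a central core flanked by inverted repeats, on which heterochromatin with H3K9 methylation forms through RNA interference. Some tRNA genes at these centromeres are known as boundary elements, which limit the reach of heterochromatin or separate it from the chromatin of the core.

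The sequences below carry the results that follow. They were read from the RefSeq genome ASM294v3 by locus tag, 5′ to 3′ on the strand of the gene, and capitals mark the anticodon and, where the exact letters occur, the B box GTTCNANNC. The annotation and RefSeq give equal lengths for chromosome I (5579133 bp) and II (4539804 bp), and the 56 and 67 tRNA genes there have the same positions in both. On chromosome III, RefSeq minus annotation was 0 bp for 2 tRNA genes left of the reporter, -1234 bp for the next 32, which include all genes at the centromere, and 594 bp for the 13 from SPCTRNATHR.10 to the right end. All 170 genes had the same length and strand in both. The 4 kinds of gene at the centromere of chromosome I come first, at chrI:3752334-3752406 (Phe), chrI:3765008-3765081 (Ala), chrI:3765434-3765505 (Glu) and chrI:3768290-3768363 (Ile), of which the first 3 are on the minus strand. The arm tRNA-Ile gene SPATRNAILE.01 is shown beneath the centromeric one because it is the closest arm relative.
SPATRNAPHE.02: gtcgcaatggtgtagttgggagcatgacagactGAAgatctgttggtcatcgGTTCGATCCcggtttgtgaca
SPATRNAALA.04: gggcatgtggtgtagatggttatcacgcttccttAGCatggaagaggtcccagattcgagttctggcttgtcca
SPATRNAGLU.03: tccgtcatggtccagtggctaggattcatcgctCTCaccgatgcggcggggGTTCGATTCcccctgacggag
SPATRNAILE.03: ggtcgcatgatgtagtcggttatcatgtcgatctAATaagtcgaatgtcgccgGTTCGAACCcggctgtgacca
SPATRNAILE.01: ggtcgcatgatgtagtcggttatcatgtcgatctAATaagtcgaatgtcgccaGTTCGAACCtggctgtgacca

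Genes of the left cluster at the centromere of chromosome II are shown next, because the same order recurs on the right side. They lie between chrII:1598511 and chrII:1602260, and the Val gene shown is the copy of the inner trio at chrII:1619174-1619256 on the minus strand. Tyr, Lys and the last gene are on the plus strand and the others on the minus strand.
SPBTRNATYR.02: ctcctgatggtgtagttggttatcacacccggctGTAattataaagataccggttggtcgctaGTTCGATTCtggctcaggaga
SPBTRNALEU.06: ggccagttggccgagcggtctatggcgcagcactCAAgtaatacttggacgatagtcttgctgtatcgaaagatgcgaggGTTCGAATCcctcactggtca
SPBTRNAGLY.07: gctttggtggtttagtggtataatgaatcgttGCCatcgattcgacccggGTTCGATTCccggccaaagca
SPBTRNALYS.07: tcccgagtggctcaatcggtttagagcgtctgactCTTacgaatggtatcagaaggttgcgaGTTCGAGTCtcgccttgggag
SPBTRNAVAL.06: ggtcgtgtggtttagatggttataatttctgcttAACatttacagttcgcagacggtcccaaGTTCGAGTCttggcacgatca
SPBTRNAGLU.06: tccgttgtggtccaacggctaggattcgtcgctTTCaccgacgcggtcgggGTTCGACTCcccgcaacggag
SPBTRNAASP.03: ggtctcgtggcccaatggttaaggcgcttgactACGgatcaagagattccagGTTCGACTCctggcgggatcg

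From the left edge of the centromere of chromosome III come a Ser, an Arg, a Leu and a Lys gene, at RefSeq positions chrIII:1066628-1066709, chrIII:1067092-1067164, chrIII:1069166-1069244 and chrIII:1071093-1071175, with Arg on the minus strand and the others on the plus strand. The arm gene SPATRNALYS.01 at chrI:1704582-1704664, plus strand, is added because it lies beside *swi6* and differs from the last of these at a single base.
SPCTRNASER.09: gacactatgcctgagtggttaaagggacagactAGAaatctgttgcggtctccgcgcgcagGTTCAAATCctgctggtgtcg
SPCTRNAARG.10: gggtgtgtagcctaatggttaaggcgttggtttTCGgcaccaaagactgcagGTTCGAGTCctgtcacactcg
SPCTRNALEU.11: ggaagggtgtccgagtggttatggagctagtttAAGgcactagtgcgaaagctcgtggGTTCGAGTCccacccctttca
SPCTRNALYS.10: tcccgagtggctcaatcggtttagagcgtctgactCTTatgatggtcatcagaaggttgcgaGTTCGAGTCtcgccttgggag
SPATRNALYS.01: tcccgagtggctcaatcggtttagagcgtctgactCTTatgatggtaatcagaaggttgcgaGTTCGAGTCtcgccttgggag

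The centromeres held a large share of the tRNA genes on a small share of the genome. The 3 windows cover 216 kb, 1.72% of the chromosomes, and hold 31.8% of the tRNA genes. This is 25 tRNA genes per 100 kb in the windows, against 0.939 per 100 kb on the arms, a 26.6-fold difference in density. Coding genes ran the other way, with 9.26 per 100 kb in the windows and 41.3 per 100 kb on the arms. The centromeres were unlike in their number of tRNA genes. Chromosome I had 7 at its centromere and 49 on its arms, chromosome II had 26 and 41, and chromosome III had 21 and 26. The smallest chromosome thus had 3 times as many centromeric tRNA genes as the largest. The windows ended close to genes in a few places: SPCTRNAALA.12 lay 314 bp inside the left edge on chromosome III and SPCTRNAPHE.05 538 bp inside the right edge, while SPATRNAARG.02 lay 3444 bp outside the left edge on chromosome I.

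Arm tRNA genes were spread unevenly on chromosome I. Its left arm carried 40 tRNA genes, 1.07 per 100 kb, and its right arm 9, 0.506 per 100 kb. On chromosome II the arms carried 20 and 21 genes, 1.26 per 100 kb on the left and 0.730 per 100 kb on the right, and on chromosome III 11 and 15, 1.03 and 1.15 per 100 kb. The longest stretch without a tRNA gene was 442 kb on chromosome I, 454 kb on chromosome II and 239 kb on chromosome III.

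At the centromere of chromosome I, 6 of the 7 tRNA genes formed an exact mirror image. On the left, tRNA-Ala, tRNA-Glu and tRNA-Ile lay 6.09, 5.67 and 2.81 kb from the axis, and their counterparts on the right lay at the same distances on the opposite strand. Each triplet sat within an annotated repeat of 5636 bp, and between these repeats was one of 4107 bp without a tRNA gene, the place of the central core. The triplets with the bases between them, 3356 bp, were identical base for base, and the match reached outward over 5551 bp with 4 mismatches. The innermost pair, tRNA-Ile, was read toward the core and the outer pairs away from it. The 7th gene, tRNA-Phe (SPATRNAPHE.02), had no counterpart. It lay on the left, 1280 bp outside the outermost annotated repeat and 604 bp from *per1*, the nearest coding gene. On the right the next tRNA gene, SPATRNALEU.04, was 281762 bp from SPATRNAALA.05, the last centromeric tRNA gene. None lay between the repeats and *emc5*, the nearest coding gene there.

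**Figure D1:**
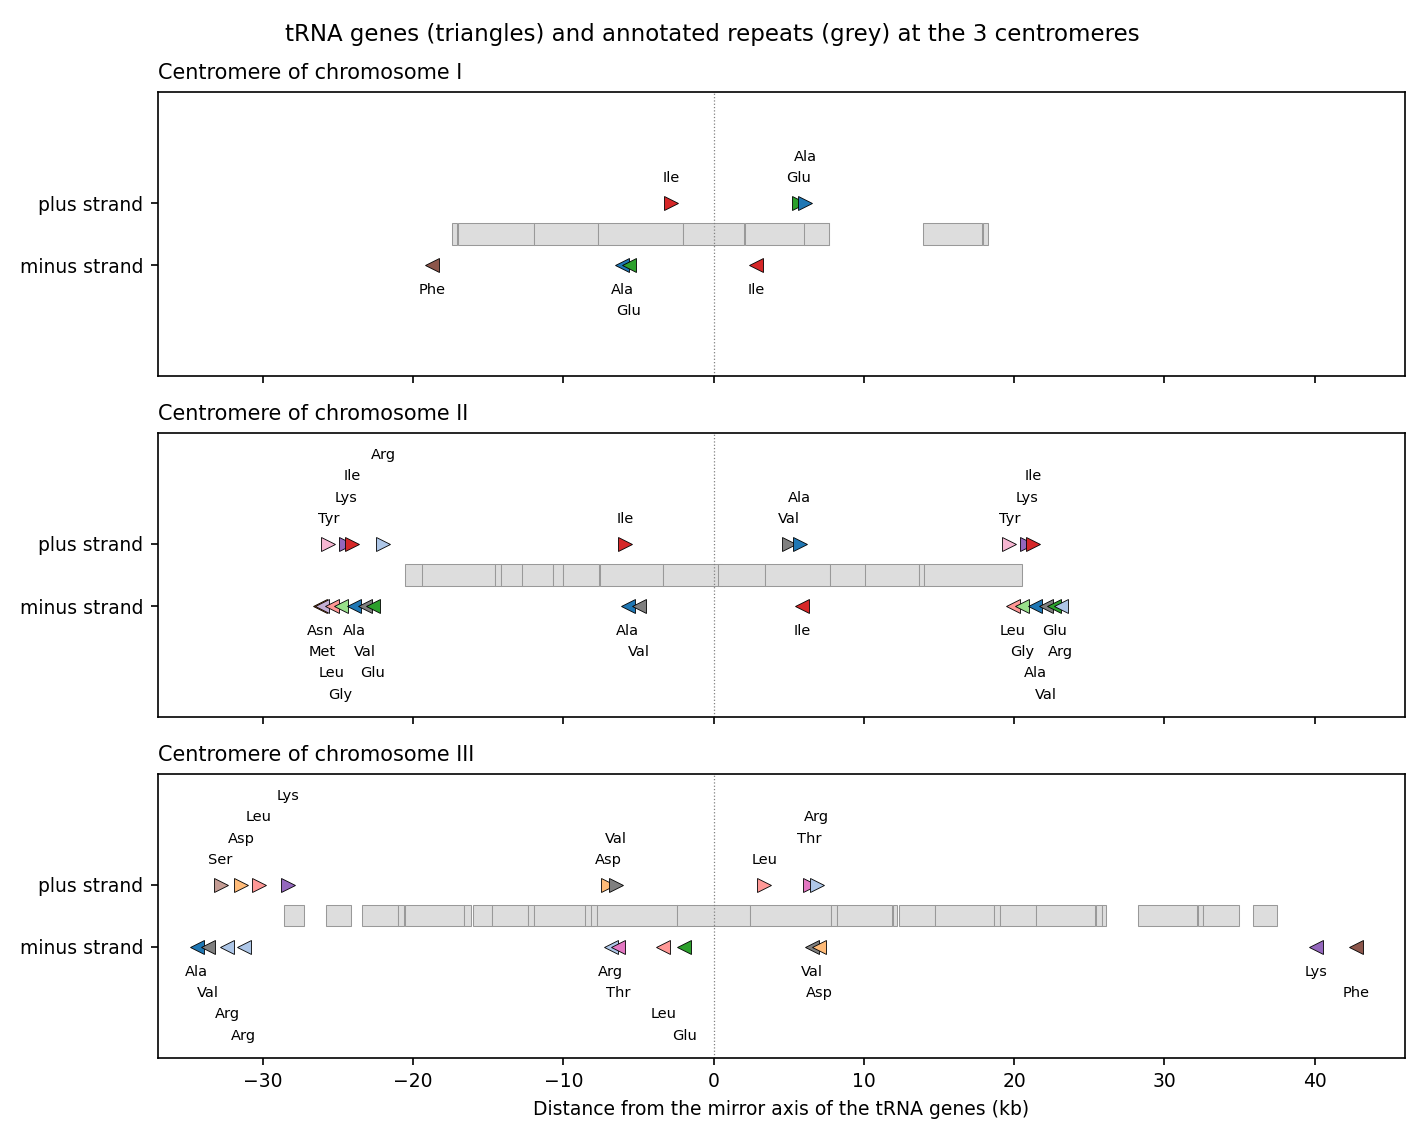
Centromeric tRNA genes by distance from the mirror axis of each centromere in kb, with genes of the plus strand above the grey annotated repeats and those of the minus strand below them, coloured and labelled by amino acid. The mirrored genes, matched by product label, number 6 on chromosome I, 6 on chromosome II and 10 on chromosome III. The outer groups on chromosome II hold 11 genes on the left and 9 on the right.

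The centromere of chromosome II had the most tRNA genes, in 2 outer clusters and 2 inner trios. The left cluster held 11 genes within 4265 bp, in the order Asn, Met, Tyr, Leu, Gly, Lys, Ile, Ala, Val, Glu and Arg, and the right one 9 genes within 3507 bp, in the order Tyr, Leu, Gly, Lys, Ile, Ala, Val, Glu and Arg. Unlike the triplets of chromosome I, the outer clusters were direct copies: the 8 genes from Tyr to Glu had the same order and strand on both sides at a constant offset of 45338 bp. Over these 3052 bp the sides differed at 1 base. The match began at the first base of the Tyr gene, with 0 bp before it, and ended 126 bp past the Glu gene. The Arg genes after it were on opposite strands, plus on the left and minus on the right. The offset spans an assembly gap of unknown length, which the annotation draws with 100 bp from 1616571 to 1616670, so the true distance between the clusters is not known.

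Neighbouring tRNA-Ile, tRNA-Ala and tRNA-Val genes of the outer clusters recurred as a unit near the core, so that this trio of 964 bp occurred 4 times at the centromere. The inner trios mirrored each other at 5.88, 5.73 and 4.99 kb from their axis. Their match reached over 3763 bp with 9 mismatches, 8 of them within the trio. Between the left outer and the left inner trio the 964 bp were identical, but the match ended 3 bp before the Ile gene and 8 bp after the Val gene. Both ends of this copy thus lay within 8 bp of the 5′ end of a tRNA gene. In the next lines the tRNA-Ile and tRNA-Ala genes of a trio are printed as the plus strand reads from chrII:1600086 to chrII:1600306, with both genes in capitals and the 73 bp between them in lower case. The Ala gene is on the minus strand and so appears as its reverse complement, and the spacer holds a run of T after each gene on the strand of that gene. The Met and Asn genes at the left edge of the cluster, 5 bp apart, are printed as the minus strand reads from chrII:1598155 to chrII:1597996.
SPBTRNAILE.05 and SPBTRNAALA.08: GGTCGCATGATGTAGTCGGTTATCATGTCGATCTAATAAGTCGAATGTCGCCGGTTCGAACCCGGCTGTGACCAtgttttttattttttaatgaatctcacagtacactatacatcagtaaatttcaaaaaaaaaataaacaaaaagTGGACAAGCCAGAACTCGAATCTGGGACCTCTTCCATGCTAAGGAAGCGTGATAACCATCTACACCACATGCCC
SPBTRNAMET.05 and SPBTRNAASN.01: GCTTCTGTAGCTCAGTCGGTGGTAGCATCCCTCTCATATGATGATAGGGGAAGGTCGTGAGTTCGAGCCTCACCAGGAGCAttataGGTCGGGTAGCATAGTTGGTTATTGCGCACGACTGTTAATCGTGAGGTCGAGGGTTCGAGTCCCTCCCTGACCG

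The centromere of chromosome III combined an inner mirror image with unlike outer groups. Inside, 5 genes on each side mirrored each other: Asp, Arg, Val, Thr and Leu, at 7.03, 6.87, 6.52, 6.38 and 3.36 kb from the axis. Each set lay in an annotated repeat of 5364 bp, and the 3749 bp from Asp to Leu were identical on both sides, within a match of 6585 bp with 6 mismatches. A single tRNA-Glu gene, SPCTRNAGLU.10, lay between these repeats at -1.96 kb, left of the axis, in the region of 4867 bp that takes the place of the central core. It had no mirrored partner.

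Outside, 8 tRNA genes lay on the left of chromosome III (Ala, Val, Ser, Arg, Asp, Arg, Leu and Lys) and 2 on the right (Lys and Phe). The left and right Lys genes, SPCTRNALYS.10 and SPCTRNALYS.11, were on opposite strands within inverted copies that matched over 5426 bp with 6 mismatches. They did not count as a mirrored pair, because the annotation puts them at -28.4 and 40.1 kb from the axis. An assembly gap of unknown length, drawn with 100 bp from 1084583 to 1084682, lies between SPCTRNALYS.10 and the axis. The true distance of SPCTRNALYS.10 from the axis is thus not known. At the far left, SPCTRNAALA.12 and SPCTRNAVAL.12 had the order, strands and spacing of 660 bp of the Ala and Val genes of the trio on chromosome II. The 817 bp from one to the other differed from those of the left outer trio by 7 edits, 99.1% identity. The annotation marks SPCTRNAVAL.12 as a pseudogene and gives it no product, yet its 83 bp were identical to those of 7 other tRNA-Val genes, 6 at centromeres and 1 on an arm.

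The outer Asp and Arg genes of chromosome III repeated the inner ones in the same way. In the lines below they are printed as the plus strand reads, outer pair first, at RefSeq positions chrIII:1068029-1068254 and chrIII:1092437-1092667, with the Val and Thr pair at chrIII:1092934-1093154 after them. The genes in capitals were identical between the Asp and Arg pairs, and the lower-case spacers, 82 and 87 bp long, brought the whole stretches to 11 edits, 95.2% identity. In each pair the genes faced each other with their 3′ ends.
SPCTRNAASP.05 and SPCTRNAARG.11: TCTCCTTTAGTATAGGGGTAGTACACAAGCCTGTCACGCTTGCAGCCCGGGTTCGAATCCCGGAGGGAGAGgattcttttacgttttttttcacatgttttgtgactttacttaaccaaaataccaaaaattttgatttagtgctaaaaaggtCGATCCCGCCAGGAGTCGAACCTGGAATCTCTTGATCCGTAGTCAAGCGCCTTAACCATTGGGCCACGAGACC
SPCTRNAASP.06 and SPCTRNAARG.12: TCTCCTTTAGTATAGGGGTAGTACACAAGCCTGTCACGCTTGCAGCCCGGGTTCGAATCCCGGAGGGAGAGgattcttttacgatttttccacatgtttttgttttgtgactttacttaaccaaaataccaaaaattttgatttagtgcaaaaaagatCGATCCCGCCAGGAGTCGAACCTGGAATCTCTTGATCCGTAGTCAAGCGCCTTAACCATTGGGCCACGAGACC
SPCTRNAVAL.09 and SPCTRNATHR.08: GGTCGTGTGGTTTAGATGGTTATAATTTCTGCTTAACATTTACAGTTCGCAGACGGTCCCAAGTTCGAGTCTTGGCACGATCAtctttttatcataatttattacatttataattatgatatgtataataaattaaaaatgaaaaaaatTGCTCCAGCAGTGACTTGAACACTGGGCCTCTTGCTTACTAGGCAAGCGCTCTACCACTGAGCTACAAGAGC

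Matched by product label, 11 pairs of centromeric tRNA genes (22 genes) mirrored each other. They numbered 3 on chromosome I, 3 on chromosome II and 5 on chromosome III. Every one of these pairs was identical in sequence and lay at equal distance from its axis to the base. SPBTRNAASP.03 and SPBTRNAARG.07 were not matched, because their products are Asp and Arg. Both read the Arg anticodon ACG, are identical in sequence and lie on opposite strands, at -22.0 and 23.1 kb from the axis. Matched by anticodon within 2000 bp, they would be a further pair, at unequal distance. Annotated repeats held 27 of the 54 centromeric genes and 0 of the 116 arm genes. The annotation does not draw repeats alike over near-identical copies. SPBTRNATYR.03, SPBTRNALEU.07 and SPBTRNAGLY.08 lay in a repeat and their left copies did not, and SPCTRNALYS.10 did but SPCTRNALYS.11 did not. By strand, 22 of 54 centromeric genes were on the plus strand, against 68 of 116 arm genes. Of the centromeric genes 24 were read toward the axis of their centromere, against 55 of the arm genes.

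The edges of the repeat arrays differed between centromeres. On chromosome I, 1 tRNA gene lay between the outermost repeat and the nearest coding gene on the left and 0 on the right. On chromosome II it was 11 genes before *rpb1* on the left, the nearest of them 1431 bp from the repeats, and 6 before *yox1* on the right, where the cluster overlapped the last repeat. On chromosome III it was 7 genes before *chk1* on the left, the nearest 1659 bp from the repeats, and 2 on the right, the nearest 2532 bp away. The right edge on chromosome I was thus the only one of 6 without a tRNA gene. These counts depend on where the annotation ends the repeats, which differs between near-identical copies.

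tRNA genes lay close together at centromeres and far apart on the arms. The median distance to the nearest tRNA gene, edge to edge, was 298 bp at centromeres (5 to 12601 bp) and 32260 bp on the arms (7 to 206042 bp). Another tRNA gene was within 2000 bp of 48 of 54 centromeric genes (88.9%) and of 17 of 116 arm genes (14.7%). Chains of neighbours at most 2000 bp apart made 10 clusters with 48 genes at centromeres, the largest of 11 genes. The arms had 8 clusters with 17 genes, of which 7 were pairs and 1 was a group of 3. The ranges overlapped: SPATRNAPHE.02, at 12601 bp, was farther from its neighbour than the lower quartile of arm genes, 12471 bp.

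Coding genes showed the opposite order. The median distance to the nearest coding gene was 4472 bp for centromeric tRNA genes (351 to 38365 bp) and 300 bp for arm tRNA genes (0 to 1625 bp). None of the 54 centromeric genes overlapped a coding gene, and 8 of 116 arm genes did, among them SPATRNAARG.02, which lies within the gene feature of *prm1*. The other 108 arm genes lay in 99 regions between coding genes with a median length of 1235 bp, against 350 bp for all 3579 such regions. A region that holds a tRNA gene must be longer than that gene, and long regions have more room for any feature. The comparison was not adjusted for this. Among other kinds of feature, the median distance to a coding gene was 87 bp for 237 LTRs, 495 bp for 47 rRNA features and 0 bp for 1566 noncoding RNA genes, most of which overlap coding genes.

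**Figure D2:**
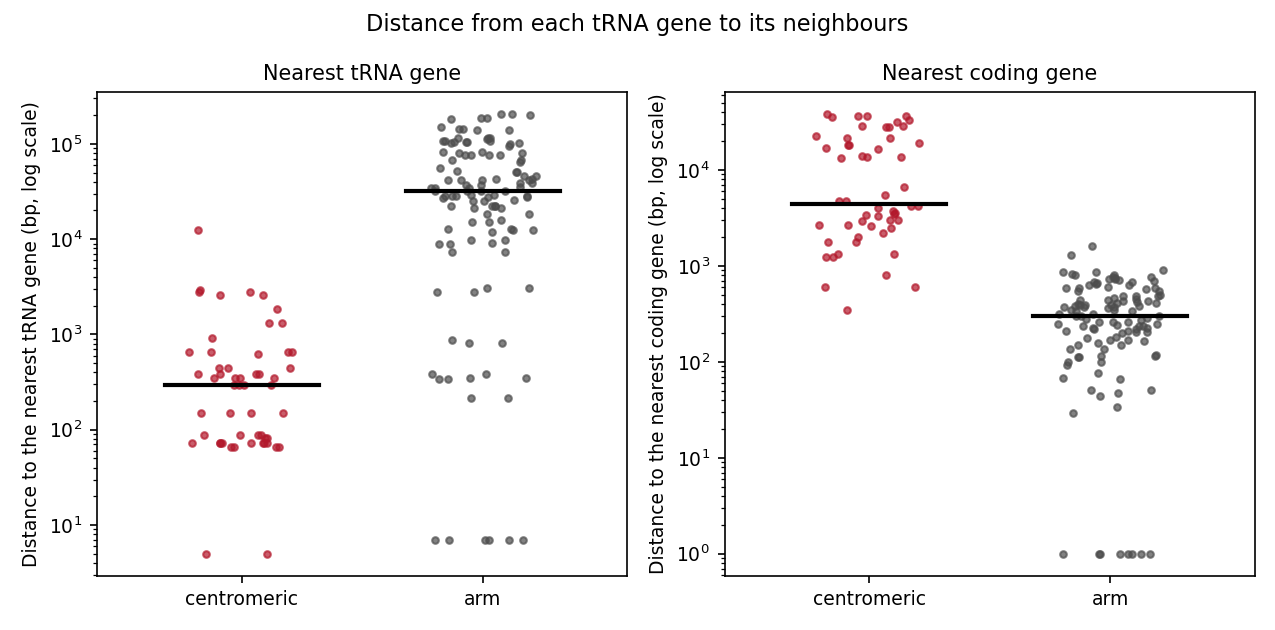
Distance in bp, on a log scale, from each tRNA gene to the nearest tRNA gene (left) and to the nearest coding gene (right), with 1 point per gene, centromeric genes left of arm genes, and a bar at the median. Overlaps, with a distance of 0 bp, are drawn at 1 bp. Medians are 298 and 32260 bp in the left panel and 4472 and 300 bp in the right one.

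The single arm cluster of more than 2 genes consisted of tRNA-Gln genes. SPBTRNAGLN.01, SPBTRNAGLN.02 and SPBTRNAGLN.03 lay within 1466 bp on chromosome II, from 257454 to 258919, with anticodons CTG, TTG and CTG. The first was on the plus strand and the others on the minus strand. SPBTRNAGLN.01 and SPBTRNAGLN.03 were identical in sequence. The nearest coding gene to the first was *clr3*, which encodes a histone deacetylase of the silencing complex SHREC, at 315 bp.

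The closest neighbours on the arms were 3 tandem pairs of tRNA-Ser and tRNA-Met, each with 7 bp between the genes and both on the plus strand. In this yeast, Ser and Met genes in such an arrangement are known to be transcribed into a dimeric precursor RNA. They lay at chrI:1096369-1096545, chrI:4265149-4265324 and, in RefSeq positions, chrIII:1689713-1689888. The 3 spacers were identical in sequence (the 7 lower-case bases below), as were the 3 Met genes, while the Ser genes read CGA, TGA and TGA as their anticodons. The Ser genes SPATRNASER.03 and SPCTRNASER.11 differed at 1 base, T65C, counted from 1 at the 5′ end of the gene. No run of TTTT occurred within 30 bases after these 3 Ser genes. The only other pair under 10 bp apart was the centromeric Met and Asn pair shown above, and its Met gene had no such run either.
SPATRNASER.01 and SPATRNAMET.01: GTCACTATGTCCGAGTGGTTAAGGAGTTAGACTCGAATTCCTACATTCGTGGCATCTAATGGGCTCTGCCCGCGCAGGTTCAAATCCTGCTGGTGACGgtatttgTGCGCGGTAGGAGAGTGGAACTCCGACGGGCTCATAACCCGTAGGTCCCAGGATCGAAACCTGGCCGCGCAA
SPATRNASER.03 and SPATRNAMET.03: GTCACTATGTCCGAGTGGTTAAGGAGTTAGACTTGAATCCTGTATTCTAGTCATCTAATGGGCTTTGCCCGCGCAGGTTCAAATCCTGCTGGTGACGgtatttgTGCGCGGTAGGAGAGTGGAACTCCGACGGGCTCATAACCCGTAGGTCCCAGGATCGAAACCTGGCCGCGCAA
SPCTRNASER.11 and SPCTRNAMET.07: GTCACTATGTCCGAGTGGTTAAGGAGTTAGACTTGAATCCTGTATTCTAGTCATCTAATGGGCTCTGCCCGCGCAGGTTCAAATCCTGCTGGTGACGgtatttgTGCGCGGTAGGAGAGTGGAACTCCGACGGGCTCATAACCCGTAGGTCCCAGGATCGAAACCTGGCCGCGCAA

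Other transcription units of RNA polymerase III lay near some arm genes. The annotation has 33 genes for 5S rRNA, which the same polymerase transcribes. A 5S gene was within 2000 bp of 0 of 54 centromeric tRNA genes and of 12 of 116 arm genes, and 11 of the 33 5S genes had a tRNA gene that close. The nearest was SPCTRNAASN.06, at 150 bp. The nearest 5S gene to any centromeric tRNA gene was 53114 bp away. The median distances to a 5S gene were nevertheless close, 139533.5 bp for centromeric and 135662.5 bp for arm genes. LTRs of retrotransposons were within 1000 bp of 0 centromeric and 6 arm tRNA genes, with a median distance of 91215 bp from centromeric and 27537 bp from arm genes. The closest LTR was 3 bp from SPATRNAVAL.01.

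By anticodon, the centromeres held tRNA genes for 15 of the 20 amino acids and the arms for all 20. Cys, Gln, His, Pro and Trp had no centromeric gene. More centromeric than arm genes were found for Ile (6 and 3), Ala (7 and 5) and Val (7 and 5), and equal numbers for Glu (5 and 5) and Tyr (2 and 2). At the other end, Ser had 1 centromeric gene and 12 on the arms, Met 1 and 6, and Asn 1 and 5. Of the 45 anticodons in all, 18 occurred at centromeres and 43 on the arms.

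**Figure D3:**
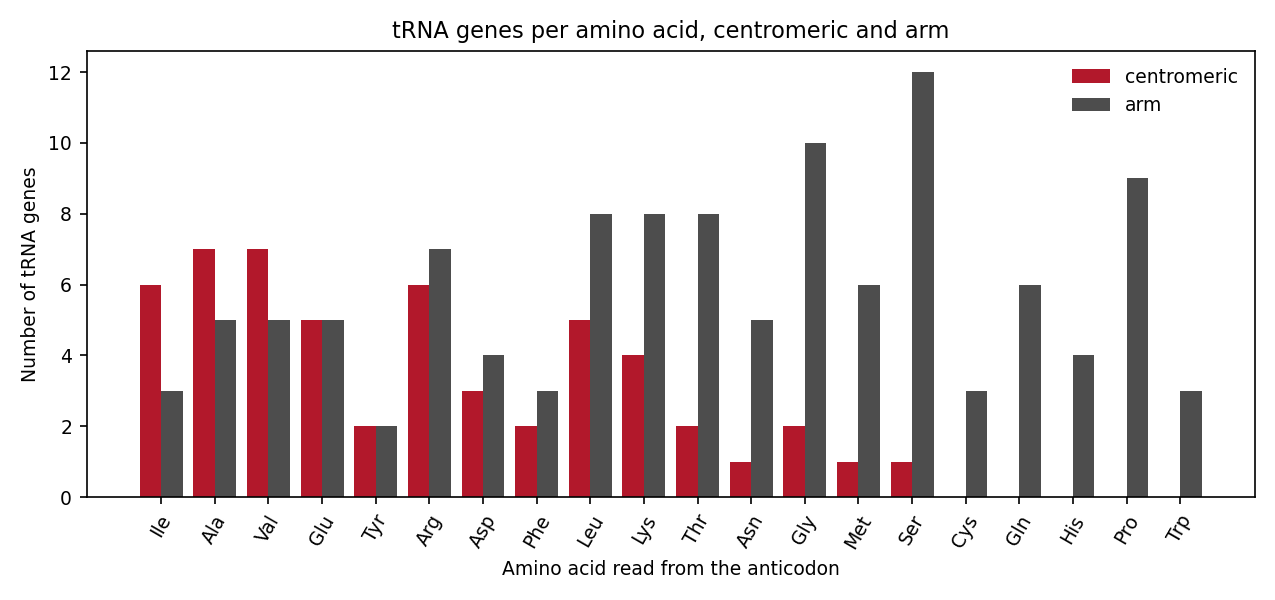
Number of tRNA genes per amino acid as read from the anticodon, centromeric (red) and arm (grey), ordered by the share that is centromeric. Ile, with 6 and 3 genes, stands at the left, and the 5 amino acids without a centromeric gene stand at the right.

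Anticodons CAA and TCG occurred at centromeres alone. All 4 tRNA-Leu genes with anticodon CAA were centromeric, SPBTRNALEU.06 and SPBTRNALEU.07 in the outer clusters of chromosome II and SPCTRNALEU.12 and SPCTRNALEU.13 in the inner repeats of chromosome III, and all 4 were identical over 101 bp. The codon this anticodon matches exactly, TTG, made up 24.4% of leucine codons and 2.41% of all codons in the 5120 coding sequences of the reference. The other was tRNA-Arg with anticodon TCG, whose gene SPCTRNAARG.10 lay at the left edge on chromosome III. Its codon, CGA, made up 16.7% of arginine codons. Other anticodons can read either codon by wobble, which was not examined.

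Most centromeric genes had exact copies elsewhere. The 54 centromeric genes had 19 distinct sequences and the 116 arm genes 62, with 68 in all. An identical copy elsewhere in the genome existed for 52 centromeric and 81 arm genes. For 38 centromeric genes (70.4%) an identical gene lay on an arm, and for 43 arm genes (37.1%) an identical gene lay at a centromere. These shared sequences belonged to 13 families. The largest were Ala with anticodon AGC, 7 centromeric and 2 arm copies, Arg with ACG, 5 and 3 copies, Gly with GCC, 2 and 6 copies, and Val with AAC, 7 and 1 copies. Asp had 3 and 4 copies, Ser with AGA 1 and 6, Glu with CTC 3 and 3, Lys with CTT 2 and 4, Thr with AGT 2 and 4, Asn 1 and 4, Glu with TTC 2 and 2, Phe 2 and 2, and Leu with AAG 1 and 2.

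There were 6 families at centromeres alone, and 4 of them had close arm relatives. All 6 centromeric tRNA-Ile genes, 2 on chromosome I and 4 on chromosome II, were identical, and they differed from both arm genes with the same anticodon at the same 2 bases, G53A and C63T (the centromeric base first, counted from 1 at the 5′ end). These bases can be seen by setting SPATRNAILE.03 beside SPATRNAILE.01 above. The other differences lay mostly in introns. SPBTRNALYS.07 differed from the arm gene SPATRNALYS.01 at 5 positions aligned without gaps, all within the fitted intron. With gaps allowed, these 2 genes were 3 edits apart. SPBTRNAMET.05 differed from SPBTRNAMET.04 at 2 positions, both within the fitted intron. SPBTRNATYR.02 differed from SPBTRNATYR.04 at 3, of which 2 were in the intron and 1, C28T, in the mature part. From the other arm Tyr gene, SPATRNATYR.01, it differed at 4, all in the fitted intron.

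Outside the genes, copies on the arms had little in common. In the 100 bases upstream, 86 pairs of identical centromeric genes had a median identity of 36% without gaps, with 27 pairs at 90% or more and 21 at 100%. For 105 pairs of an identical centromeric and arm gene the median was 33% and the highest value 44%, and for 106 pairs of arm genes the median was 33%. Pairs of tRNA genes with different sequences had a median of 32%. The single arm pair above 90% was SPATRNAMET.03 with SPCTRNAMET.07, at 99%, whose upstream bases are the Ser genes shown above. Among pairs from different centromeres, the 100 bases upstream of SPCTRNAALA.12 on chromosome III were 98% identical to those of each of the 4 Ala genes on chromosome II.

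The shares of genes with promoter letters differed between the groups in both directions, without a test. The B box GTTCNANNC, searched on the gene strand, occurred in 47 of 54 centromeric genes (87.0%) and 109 of 116 arm genes (94.0%), against 1.23% of 12573 windows of 73 bases taken every 1000 bp. The 7 centromeric genes without it were the 7 tRNA-Ala genes with anticodon AGC, and their 2 identical arm copies lacked it too. The other arm genes without it were 4 identical Met genes and SPATRNAARG.01. A TATAA within the 100 bases upstream occurred before 31 centromeric genes (57.4%) and 54 arm genes (46.6%), against 26.9% of 5145 mRNA starts and 18.3% of the windows taken every 1000 bp. The shorter TATA, which every TATAA contains, occurred before 43 centromeric genes (79.6%) and 109 arm genes (94.0%), against 57.8% of mRNA starts. Of the 11 centromeric genes without it, 5 were Ala genes, 3 Arg genes, 2 Val genes and 1 a Glu gene. Most of these repeat the same upstream bases. The 100 bases upstream were identical among SPBTRNAALA.08 to SPBTRNAALA.11, and 98% identical between each of them and SPCTRNAALA.12. They were also identical between SPCTRNAARG.12 and SPCTRNAARG.13, and between SPCTRNAVAL.09 and SPCTRNAVAL.10. The TATAA nearest the gene began a median of 33 bp upstream in both groups.

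A run of TTTT within 30 bases after the gene occurred for 51 centromeric (94.4%) and 112 arm genes (96.6%), against 25.3% of windows. In both groups the run began at a median of 4 bases after the gene. The 3 centromeric genes without it were SPBTRNAMET.05, next to its Asn neighbour, and the Lys genes SPCTRNALYS.10 and SPCTRNALYS.11 at the outer edges of chromosome III. A match of letters does not show that a factor binds there.

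Introns were annotated for 16 of 54 centromeric genes (29.6%) and 8 of 116 arm genes (6.90%), as a gap between 2 parts of a locus tag. Fission yeast tRNA introns lie just after the anticodon and are removed by a splicing endonuclease. A cloverleaf fitted to each sequence placed an intron in 18 centromeric (33.3%) and 26 arm genes (22.4%). All 24 annotated introns were found by the fit, 22 of them with the annotated length, and the fit added 20 more. The difference was mostly on chromosome I, where 1 of 56 genes had an annotated intron and 16 a fitted one, against 14 and 17 of 67 genes on chromosome II and 9 and 11 of 47 on chromosome III. The same sequence was treated differently from place to place: of 8 identical Val genes 6 had an annotated intron, and of 6 identical Lys genes 4.

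The product named in the annotation matched the anticodon in 163 of 170 genes. SPCTRNAASP.05, SPCTRNAASP.06, SPCTRNAASP.07 and SPCTRNAASP.08 are labelled tRNA-Asn but read GTC, the anticodon for Asp, as their locus tags say. SPBTRNAGLY.06 is labelled tRNA-Lys and reads GCC, for Gly. SPBTRNAASP.03, in the left cluster on chromosome II, is labelled tRNA-Asp but reads ACG, for Arg, and RefSeq gives the same position as SPBTRNAARG.06. The remaining gene is SPCTRNAVAL.12, which has no product. By product, Asn had 4 centromeric and 6 arm genes and Asp 1 and 3. By anticodon, Asn had 1 and 5 and Asp 3 and 4. Amino acids in the text are those of the anticodon, but mirrored pairs were matched by product.

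The number of tRNA genes per amino acid followed codon use when all genes were counted. Over the 20 amino acids, Pearson's r between genes and share of codons was 0.55 for centromeric genes alone, 0.56 for arm genes alone and 0.80 for all genes, and Spearman's rho was 0.68, 0.46 and 0.80. These are descriptions over amino acids, which share the same coding sequences, and carry no test. Ile, 6.15% of codons, had 6 centromeric and 3 arm genes, and Ser, 9.43% of codons, had 1 and 12. Leu, 9.86% of codons, had 5 and 8.

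**Figure D4:**
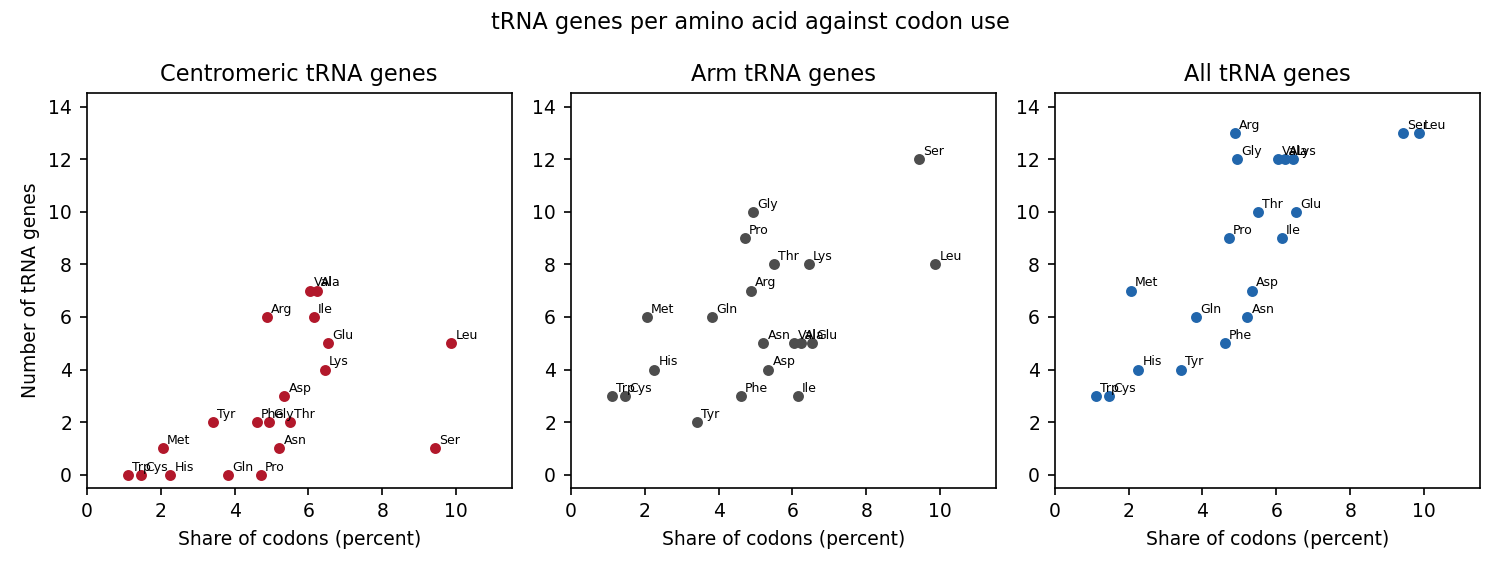
Number of tRNA genes per amino acid against the share of codons for that amino acid in percent, for centromeric, arm and all tRNA genes, with 1 point per amino acid. Points scatter in the first 2 panels, where r is 0.55 and 0.56, and lie closer to a line in the right one, where r is 0.80.

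The reporter of the study was inserted near an arm tRNA gene. The gene feature named Tetarr-ade6 spans 115325 to 118393 on the minus strand of chromosome III. SPCTRNAGLY.10, a tRNA-Gly gene on the minus strand from 113716 to 113786, ended 1538 bp to its left, with *tam14* between them. To the right, 23807 bp without a tRNA gene followed up to SPCTRNAGLU.09, a tRNA-Glu gene on the plus strand, with 11 coding genes between, among them SPCC330.06c and *rpc37*, which encodes a subunit of RNA polymerase III. The stretch between both tRNA genes was 28.4 kb long. Of 5120 coding genes, 4.75% had a tRNA gene as near as the reporter did, and the median distance was 35452 bp. SPCTRNAGLY.10 was identical to SPBTRNAGLY.07 and SPBTRNAGLY.08 of the outer clusters on chromosome II, and SPCTRNAGLU.09 to SPATRNAGLU.03 and SPATRNAGLU.04 of chromosome I and to SPCTRNAGLU.10 in the core of chromosome III. Both genes that flank the reporter therefore have the sequences shown above for centromeric genes.

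**Figure D5:**
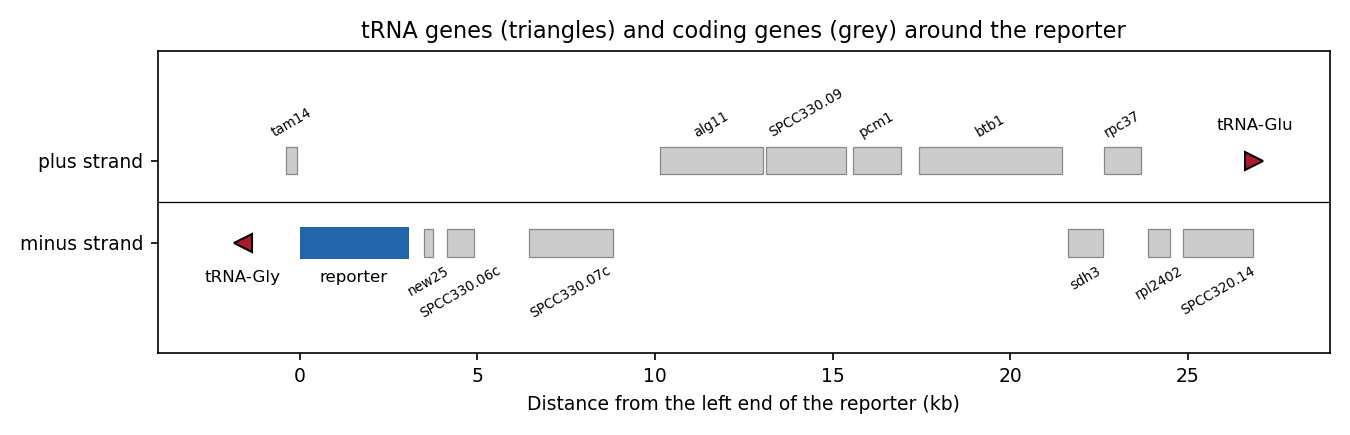
Map of the stretch between the tRNA genes around the reporter, in kb from the left end of the reporter, with the plus strand above and the minus strand below the line, coding genes in grey, the reporter in blue and tRNA genes as triangles. The tRNA-Gly gene lies 1538 bp to the left of the reporter and the tRNA-Glu gene 23807 bp to its right.

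Genes of the heterochromatin pathway differed in how near a tRNA gene lay. *swi6*, whose product binds H3K9 methylation and carries the studied substitutions, had SPATRNALYS.01 at 508 bp, upstream of its start and read away from it. Only 2.17% of coding genes had a tRNA gene that near. *clr4*, the H3K9 methyltransferase, had SPBTRNAHIS.01 at 5750 bp, and *epe1*, whose product opposes heterochromatin, had SPCTRNALYS.12 at 39997 bp. Of the genes for TFIIIC subunits, *sfc1* had a tRNA gene at 18326 bp, against 13095 bp for *sfc3*, 112905 bp for *sfc4* and 55127 bp for *sfc6*. SPATRNALYS.01 and the centromeric SPCTRNALYS.10 differed at a single base of the intron, C47A with the centromeric base first.

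The distance to a tRNA gene was also taken for other silent regions, to be read against the median of 35452 bp for a coding gene. The annotated mating-type genes, from 2114219 to 2133394 on chromosome II, had SPBTRNAGLY.09 at 44661 bp on the left and SPBTRNAPRO.06 at 185897 bp on the right. The rDNA genes at the left end of chromosome III were 48269 bp from SPCTRNAHIS.03, and those at the right end 301515 bp from SPCTRNAASP.08. The tRNA gene nearest to a chromosome end was SPCTRNAHIS.03, at 71399 bp, and the others were 141305 bp (SPATRNASER.04, right end of chromosome I) to 365154 bp (SPATRNAPRO.01, left end of chromosome I) away. SPBTRNAGLY.03 was 180993 bp from the left end of chromosome II, and SPBTRNAASN.04 was 329678 bp from its right end. Around the middle of each centromere window, 7 tRNA genes lay in 45 kb at the centromere of chromosome I, 26 in 77 kb on chromosome II and 20 in 77 kb on chromosome III. A window of 40 kb around the reporter held 1, the last 66 kb of the right end of chromosome II held 0 and the last 19 kb of chromosome III held 0.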

How the data were processed

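The file used here is a GFF annotation written by Geneious 7.1.5, and its only measured columns are the start and end of each feature, which the authors deposited as positions and not as counts or signal. The annotation names no genome build, and no source used here gives the build for alignment. Per the submitters' notes, reads were trimmed with Trimmomatic and aligned with BWA, and coverage was not analysed here, so depth does not bear on these values. The rows of type tRNA (194) were merged by locus tag. Genes were matched to the RefSeq genome ASM294v3, 169 by locus tag and 1 by position, and sequences were read there. A genome sequence of the reporter strain was not used here. Coding genes were taken by gene feature. Mirrored pairs share amino acid by product and lie on opposite strands within 2000 bp of equal distance from an axis, placed at the middle shared by most such pairs and, on a tie, by the closest pairs. Copies were compared by ungapped extension (match 1, mismatch -2, drop 20) and with edlib 1.3.9.post1. Cloverleaf fits scored stem pairing with an optional intron after the anticodon loop. Codons were counted in 5120 RefSeq coding sequences. Python 3.11.15, numpy 2.4.6, scipy 1.17.1 and matplotlib 3.10.9 were used, and functions were tested on simulated data. Named genes are the centromeric ones, close arm pairs and clusters, identical arm copies and those nearest to the reporter, the silent regions and chromosome ends. SPATRNAVAL.01, SPCTRNAASN.06, SPATRNAARG.01 and *clr3* were named after their values were seen. Members and lists were chosen with earlier results of these data known. Alternatives changed windows, distances, motifs and the source of introns and amino acids.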

Additional observations from a re-analysis of the deposited data

How the results depend on the processing

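No paired analysis was possible because the annotation holds no replicate and no result comes from a test. The number of tRNA genes was 194 counting every row and 170 counting distinct positions, and, as alternatives added after seeing the data, 169 without the pseudogene. Centromeric genes numbered 44 in windows 10 kb narrower on each side, 55 in windows 10 kb wider, 53 in windows of 45 and 77 kb and, added later, 55 in windows 5 kb wider. The next alternatives moved values by over 1.5 times. Clusters fell to 8 with at least 3 genes each, against 18 with at least 2, by construction. The median distance to a coding gene over all tRNA genes was 781.5 bp from CDS ends, against 471 bp from gene features. The mirrored pairs, 11 within 500, 2000 or 5000 bp, fell to 0 with the axis halfway between the outermost genes, an alternative added later, since the outer genes are not symmetric. Matching these pairs by anticodon in place of product was not run. Introns were in 14.1% of genes by annotation, in 22.9% by a length 6 bp or more above the shortest gene of the amino acid, and in 25.9% by the cloverleaf fit, added later. TATA without the last A was upstream of 89.4% of genes, against 50% with it. All other alternatives stayed within 1.5 times, among them the correlation with codon use by product, which was 0.80 for all genes, 0.57 for arm genes, 0.81 as Spearman's rho and, added later, 0.80 by anticodon.

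Sequences came from the reference strain and not from the cells studied, 4 assembly gaps have unknown length. Whether near-identical centromeric copies are complete in the assembly was not tested.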
